A study of Mus musculus with 6 samples.

Results

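Probe sets for 9 genes of the TNF superfamily were followed across the series: the ligand genes Tnf, Ltb, Tnfsf10, Tnfsf13b and Fasl, and the receptor genes Tnfrsf1a, Tnfrsf1b, Fas and Tnfrsf12a. The members were all probe sets that map only to these genes, which gave 16 probe sets for 9 of the 18193 genes with a probe set of their own on the array. Values come from 6 one-colour Affymetrix mouse arrays, 1 per sample, hybridised with RNA of macrophages. Arrays labelled as LPS-treated macrophages of Trib1-deficient mice (n = 2), called knockout-labelled here, are compared with those labelled as LPS-treated wild type of the same Trib1 line (n = 2). A separate LPS pair holds wild-type macrophages given lipopolysaccharide (LPS, a bacterial cell wall component; n = 1) or medium (n = 1), and serves in the series to define LPS-inducible genes. The Trib1 allele, the origin of the macrophages, the LPS dose and time, and the strain, sex and age of the mice are not labelled. Nor do the labels state that same-genotype arrays come from different mice, so the p-values cover the spread among these samples, which may be technical.

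TNF superfamily ligands are trimeric proteins, mostly made as membrane proteins and in part shed, that cluster receptors of the TNF receptor superfamily. Receptors with a death domain, such as TNFR1 and Fas, can assemble a caspase-activating complex. Many receptors of the family, among them TNFR1, TNFR2 and Fn14, activate NF-kB through TRAF adaptors. In macrophages Tnf is a classical early product of LPS signalling, and TNFR2 is a receptor whose RNA is known to be raised by inflammatory stimuli.

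All values are MAS5 intensities rescaled so that every array had the same trimmed mean. A scaled intensity of 29.9, the 40th percentile of all values, was used as a floor below which values have no order. Between 57.9% and 63.0% of probe sets lay above it on each array, and Pearson correlations between arrays across probe sets lay between 0.935 and 0.976. The targeted gene does not check the labels: Trib1 (1424880_at) measured 88.1 and 20.9 on the knockout-labelled arrays and 17.9 and 17.5 on the wild-type arrays, so knockout 1 lay above both wild-type arrays. In the LPS pair, wild type too, this probe set measured 189.3 on the LPS array and 383.5 on the medium array. Both wild-type Trib1-line values were thus under the floor for a probe set with clear signal in other wild-type macrophages. The second probe set (1424881_at) measured 32.3 and 38.7 on the knockout-labelled arrays and 20.2 and 63.0 on the wild-type arrays. Where either probe set lies relative to the deletion is not given, and every genotype direction below rests on the labels. The LPS pair also differed from the Trib1 line in sex-linked RNA. Xist measured 980.5 on the LPS array and 1615 on the medium array but at most 5.56 on the Trib1-line arrays, where the Y-linked Eif2s3y lay between 218.8 and 534.2. The 8 macrophage markers (among them Csf1r, Adgre1 and Cd68) were above the floor on every array.

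Upstream sequence is shown for the genes on which the values below turn: Tnf and Ltb, neighbouring ligand genes on chromosome 17 that were both higher after LPS, Tnfrsf1b, the member receptor gene with the highest LPS ratios, and Tnfrsf12a, which had the greatest genotype difference. Each is the 250 bases before the start of transcription, 5′ to 3′ on the gene's own strand, from RefSeq (GRCm38.p6). Capitals mark matches on either strand to the NF-kB consensus, a C/EBP pattern (TTNNGNAA), AP-1 (TGANTCA) or the interferon-stimulated response element ISRE (GAAANNGAAA). The Tnf window is chr17:35202008-35202257 on the minus strand, the Ltb window chr17:35194257-35194506 on the plus strand, the Tnfrsf1b window chr4:145246871-145247120 on the minus strand and the Tnfrsf12a window chr17:23677450-23677699 on the minus strand.
Tnf: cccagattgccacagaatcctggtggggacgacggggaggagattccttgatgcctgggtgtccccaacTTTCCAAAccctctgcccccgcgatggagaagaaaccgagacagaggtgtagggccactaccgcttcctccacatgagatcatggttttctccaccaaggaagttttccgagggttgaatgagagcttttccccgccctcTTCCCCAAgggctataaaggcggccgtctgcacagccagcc
Ltb: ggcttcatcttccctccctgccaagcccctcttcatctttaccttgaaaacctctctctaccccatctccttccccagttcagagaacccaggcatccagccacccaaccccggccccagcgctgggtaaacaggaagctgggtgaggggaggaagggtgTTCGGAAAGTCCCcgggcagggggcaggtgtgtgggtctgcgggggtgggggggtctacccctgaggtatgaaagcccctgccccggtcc
Tnfrsf1b: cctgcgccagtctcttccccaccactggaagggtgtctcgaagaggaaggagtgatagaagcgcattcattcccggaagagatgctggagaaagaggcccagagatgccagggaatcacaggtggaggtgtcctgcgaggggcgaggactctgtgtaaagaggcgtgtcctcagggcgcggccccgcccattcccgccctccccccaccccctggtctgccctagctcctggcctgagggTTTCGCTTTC
Tnfrsf12a: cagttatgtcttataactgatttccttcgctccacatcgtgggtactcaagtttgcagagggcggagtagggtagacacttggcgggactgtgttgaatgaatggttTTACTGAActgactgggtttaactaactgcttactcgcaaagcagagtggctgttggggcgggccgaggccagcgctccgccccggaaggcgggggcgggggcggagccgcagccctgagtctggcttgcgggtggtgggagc

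In the Ltb window the NF-kB match (GGGACTTTCC on the antisense strand) overlaps a C/EBP match (TTCGGAAA), which together give a single run of capitals. The Tnf window holds 2 C/EBP matches and the Tnfrsf12a window 1. The Tnfrsf1b window holds 1 ISRE match, in its last 10 bases. Of 32851 windows of this length in the RefSeq table, 7.25% hold the NF-kB consensus, 36.9% the C/EBP pattern, 6.75% AP-1 and 2.98% ISRE. Of the 9 members, all with a window, 1 holds NF-kB, 4 C/EBP, 2 AP-1 and 2 ISRE. A match is a string of letters and not a measured site, and these windows are short.

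On all 3 arrays of LPS-treated wild-type macrophages the ligand genes Tnf and Ltb and the receptor genes Tnfrsf1b and Fas measured higher than on the single medium array. With its more responsive probe set Tnfrsf1b stood at 4.91-fold to 5.32-fold the medium value, and Tnf at 2.61-fold to 3.19-fold. Tnfrsf1a, the other TNF receptor gene, lay under medium on all 3. Tnfsf10 was above medium on all 3 with 2 of its 3 probe sets, Tnfsf13b gave no common direction, and Fasl stood near the floor.

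Tnf, the ligand of TNFR1 and TNFR2, measured 21451 on the LPS array and 6719 on the medium array of the LPS pair (1419607_at, 3.19-fold). The wild-type arrays of the Trib1 line measured 17563 and 20690, which is 2.61-fold and 3.08-fold the medium value. All 3 LPS-treated wild-type arrays therefore lay within a narrow band (mean 19902 ± 2061, SD, n = 3), well above the single medium value. Against the medium array limma gave a log2 difference of 1.56 (SE 0.32, unadjusted p = 0.00171, Benjamini-Hochberg adjusted p = 0.169), short of the threshold of 0.05.

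Ltb, which encodes lymphotoxin beta, the membrane-bound partner of lymphotoxin alpha, measured 363.6 on the LPS array and 58.7 on the medium array (1419135_at, 6.20-fold). Wild-type macrophages of the Trib1 line gave 132.2 and 122.8, only 2.25-fold and 2.09-fold the medium value. The LPS array of the LPS pair thus stood apart from the other wild-type LPS arrays, and the limma difference (log2 1.62, SE 0.70) had an adjusted p = 0.618. Summed B cell markers were also highest on that array, at 3315 against 2328 in medium, and stood at 1647 and 1711 on those of the Trib1 line. Summed T and NK cell markers were 1057 on the LPS array, 754.7 and 1002 in wild type of the Trib1 line, and 419.5 in medium. Gzma and Gzmb, part of that sum, were themselves 4.20-fold and 6.22-fold higher on the LPS array than in medium. The part of lymphocyte RNA in the Ltb values was not tested, and in bulk RNA fewer cells of a type and less RNA per cell cannot be told apart. Lta, singled out here as the gene on the other side of Tnf after its values were seen, was under the floor in medium (5.01) and measured 53.3 on the LPS array and 110.5 and 282.4 in wild type of the Trib1 line.

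Tnfsf10, which encodes the death ligand TRAIL, has 3 probe sets. On the leading 1459913_at it measured 200.3 on the LPS array and 187.8 on the medium array, while wild type of the Trib1 line gave 394.5 and 487.3. The LPS pair alone showed almost no change, while both Trib1-line arrays were more than 2-fold above medium. On the other probe sets too the LPS-pair ratios, 1.24 (1420412_at) and 0.720 (1439680_at), were below the Trib1-line ratios, which lay between 1.53 and 5.66.

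Tnfsf13b, which encodes the B cell survival factor BAFF, measured 46.9 on the LPS array and 64.7 on the medium array (1460255_at). The wild-type Trib1-line arrays, at 61.5 and 90.0, lay on either side of the medium value. Of its other probe sets, 1445251_at lay between 35.1 and 87.3 on all 6 arrays and 1458047_at was under the floor on every array, with values from 1.19 to 3.90. Fasl, the ligand of Fas and a product mainly of cytotoxic lymphocytes, was near or under the floor throughout: its probe sets ranged from 7.07 to 48.3 (1418803_a_at) and from 7.29 to 46.0 (1449235_at). Their 6 arrays fell in different orders, so no LPS direction can be given for Fasl.

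Tnfrsf1b, which encodes TNFR2, measured 2520 on the LPS array and 493.9 on the medium array with 1448951_at (5.10-fold). The wild-type Trib1-line arrays measured 2626 and 2426, 5.32-fold and 4.91-fold the medium value. The 3 LPS-treated arrays differed little from each other (SD 99.9), and limma called the difference (log2 2.35, SE 0.26, adjusted p = 0.0324). Medium has no replicate, so the spread behind this SE comes from the LPS arrays and not from medium, and the Trib1-line arrays also differ from the medium array in line, deposited scale and sex-linked RNA. The brighter 1418099_at measured 8301 on the LPS array, 7404 and 5950 on the Trib1-line arrays and 2341 in medium, a log2 difference of 1.61 that did not pass (SE 0.31, adjusted p = 0.145). Both probe sets had all LPS arrays above medium, by ratios of 2.54 to 5.32.

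Tnfrsf1a, which encodes the widely expressed death domain receptor TNFR1, ran the other way: 4318 on the LPS array and 3639 and 4199 in wild type of the Trib1 line, against 5706 in medium (1417291_at). All 3 ratios were below 1, between 0.638 and 0.757, and the limma difference of -0.50 (SE 0.28) had an adjusted p = 0.716. Fas, the receptor of Fas ligand, measured 1472 on the LPS array and 744.7 and 985.4 in wild type of the Trib1 line, against 503.5 in medium (1460251_at). Its ratios, 2.92, 1.48 and 1.96, shared a direction but spread widely (adjusted p = 0.582).

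Tnfrsf12a, which encodes Fn14, the receptor of TWEAK, lay under medium on the wild-type LPS arrays with both probe sets. On 1418572_x_at it measured 142.5 on the LPS array, 209.0 and 130.9 on the Trib1-line arrays and 309.9 in medium. On 1418571_at the LPS array measured 100.5 and the medium array 153.2, and both wild-type Trib1-line arrays were under the floor at 26.7 and 15.0, so that medium was at least 5.13-fold above them. The suffix x marks probe sets whose probes can also bind other transcripts.

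**Figure D1:**
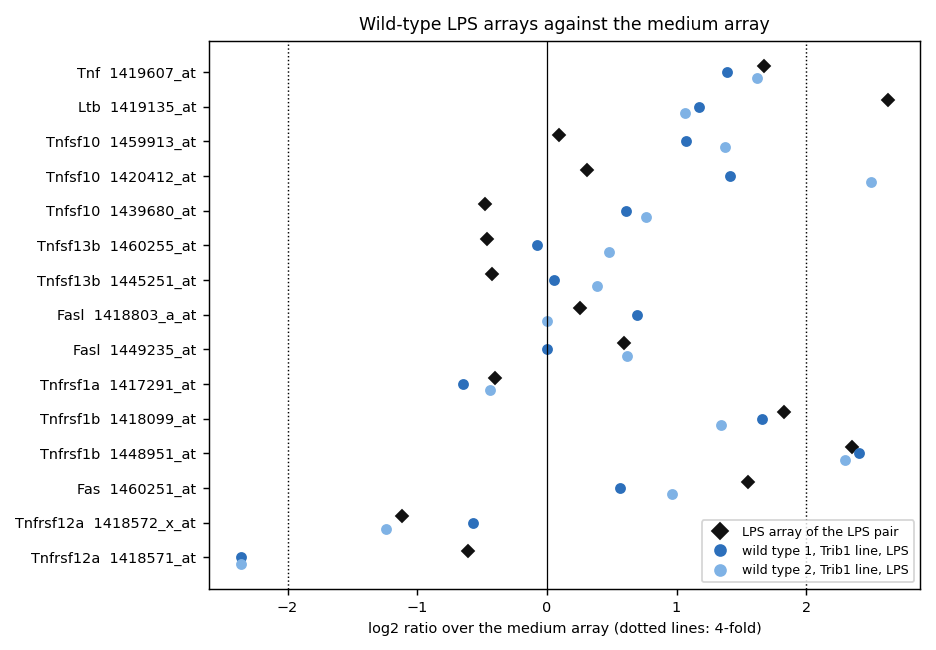
Log2 ratio of each wild-type LPS array over the single medium array, for the 15 member probe sets that exceeded the floor on any of these 4 arrays; diamonds are the LPS array of the LPS pair and circles the wild-type Trib1-line arrays, with dotted lines at 4-fold. The Tnf, Ltb, Tnfrsf1b and Fas points all lie to the right of 0 and the Tnfrsf1a and Tnfrsf12a points to the left; the Ltb diamond (2.63) is far from its circles (1.17 and 1.06).

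By the rule of at least 4-fold, 2 of the 15 member probe sets above the floor in the LPS pair were induced, Ltb and Tnfrsf1b (1448951_at), where 0.986% of all 29115 probe sets were, and 0 were repressed, where 0.598% were. At 2-fold, 5 were higher (background 5.02%), those of Tnf, Ltb, Fas and both of Tnfrsf1b, and 1 was lower (background 6.29%), Tnfrsf12a 1418572_x_at. The stricter view that asks all 3 wild-type LPS arrays to be at least 2-fold above medium held for 4 member probe sets, those of Tnf, Ltb and both of Tnfrsf1b, against 1.71% of 33134 probe sets, and none was 2-fold below on all 3 (background 1.91%). LPS over medium had a median log2 ratio of 0.26 over the 15 and -0.085 over all probe sets above the floor. Limma of the 3 wild-type LPS arrays against medium called 1 member probe set of 15 tested (Tnfrsf1b), higher, against 0.158% of 28430 higher and 0.0106% lower. At an unadjusted p under 0.05 there were 4, all higher (background 3.65% higher and 4.51% lower). In that fit the lone medium array is assumed to vary like the LPS arrays, 2 of which come from the Trib1 line.

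Other genes of the system were read from lists of the remaining ligands, receptors and signalling proteins. Of 9 other ligand genes found on the array, 6 were above the floor in the LPS pair and 2 were induced: Tnfsf9, the 4-1BB ligand, at 2071 on the LPS array and 328.2 in medium (6.31-fold), and Tnfsf4, the OX40 ligand, at 372.4 and 79.8 (4.67-fold). The wild-type Trib1-line arrays stood at 3.71-fold and 5.38-fold the medium value for Tnfsf9, but at 1.56-fold and 6.21-fold for Tnfsf4. Among 16 other receptors above the floor, Cd40, the receptor of CD40 ligand, was the induced gene (22488 on the LPS array and 5224 in medium, 4.30-fold). Of 32 signalling, shedding and cell death genes, 2 were induced: the TNFR2 adaptor gene Traf1 (1888 and 151.2, 12.5-fold) and Tnip1, a partner of the A20 deubiquitinase (11130 and 1662, 6.70-fold). On the wild-type Trib1-line arrays the ratios over medium were 3.80 and 4.14 for Cd40, 11.3 and 11.6 for Traf1, and 3.36 and 4.08 for Tnip1. None of the 3 lists had a repressed gene, and their median log2 ratios were 0.62, -0.11 and 0.16. Over all probe sets above the floor, the 4-fold rule called 0.986% induced and 0.598% repressed.

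After LPS, Tnf and its receptor gene Tnfrsf1a differed little between genotypes, while Ltb and 2 of the 3 probe sets of Tnfsf10 lay lower and Tnfrsf1b and 1 of the probe sets of Tnfrsf12a lay higher on the knockout-labelled arrays. None of these differences passed the test over all probe sets. The plot of the members by array shows each value.

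**Figure D2:**
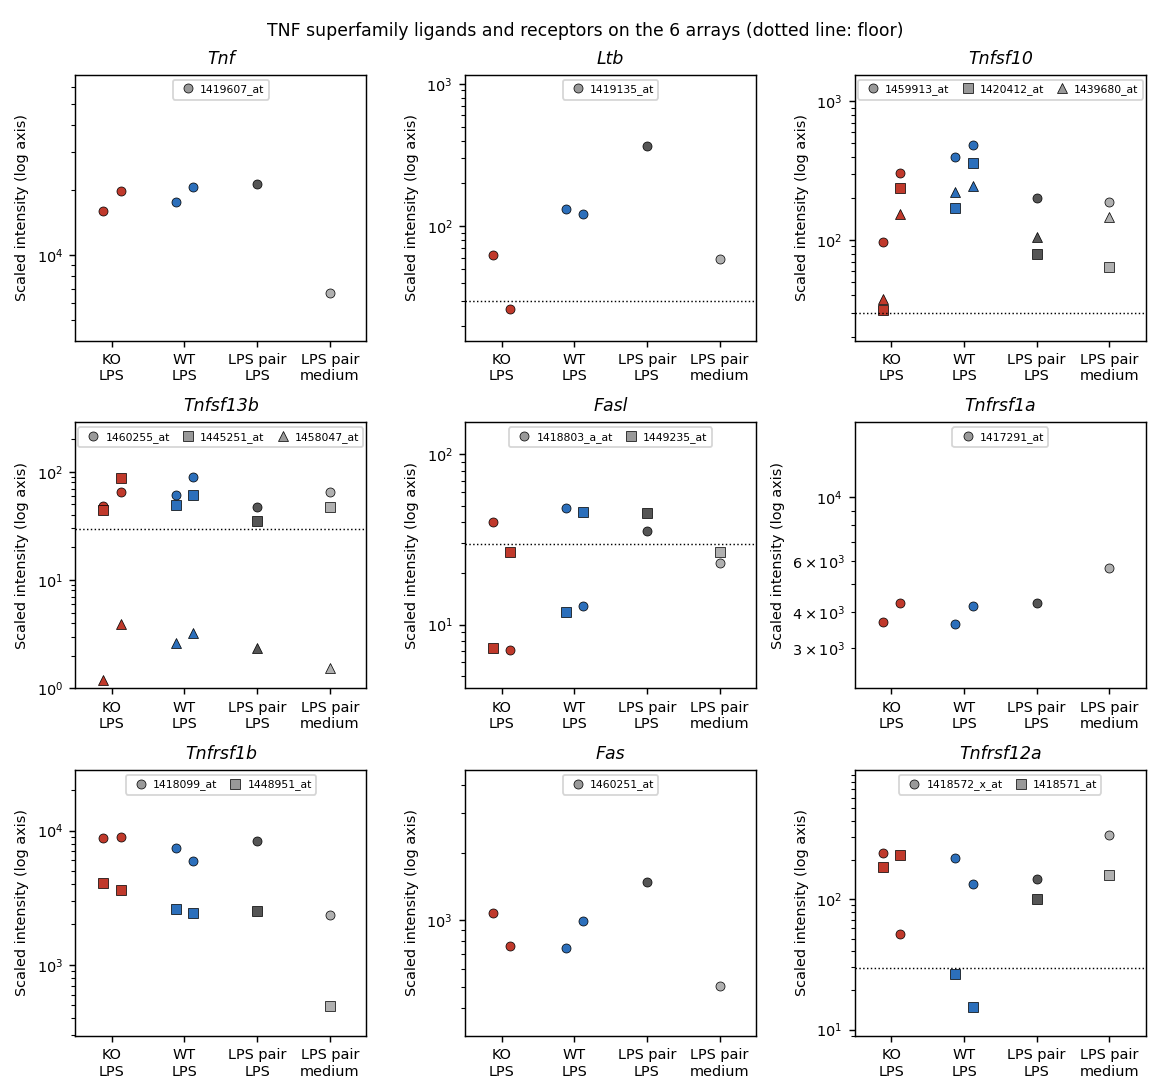
Scaled intensity (log axis) of every member probe set on the 6 arrays: knockout-labelled and wild-type arrays of the Trib1 line after LPS (n = 2 each) and the LPS and medium arrays of the LPS pair (n = 1 each), with marker shapes for the probe sets of a gene and a dotted line at the floor of 29.9 where it falls in the panel. The knockout-labelled Ltb values (63.2 and 26.2) lie below both wild-type values (132.2 and 122.8), and those of Tnfrsf12a 1418571_at (177.7 and 218.0) lie above both wild-type values.

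Tnf measured 16042 and 19746 on the knockout-labelled arrays, and 17563 and 20690 on the wild-type arrays. The groups overlap, and the log2 difference was -0.099 (SE 0.20, n = 2 per genotype; limma, adjusted p = 0.999). Each knockout-labelled array was still 2.39-fold or 2.94-fold the medium array.

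Ltb measured 63.2 and 26.2 on the knockout-labelled arrays, the second under the floor, and 132.2 and 122.8 on the wild-type arrays. Both knockout-labelled values lay below both wild-type values and near or under the 58.7 of the medium array. The log2 difference was -1.55 (SE 0.47, n = 2 per genotype; limma, unadjusted p = 0.0174, adjusted p = 0.950). Cell type markers moved alongside. Of 8 B cell markers tested, 5 had both knockout-labelled arrays below both wild-type arrays (background 16.3%) and 0 above (background 15.4%). Their summed levels were 1167 and 1617 on the knockout-labelled arrays and 1647 and 1711 on the wild-type arrays. Cd22, a large part of these sums, overlapped, at 812.0 and 1007 on the knockout-labelled arrays, and 1010 and 854.4 on the wild-type arrays. Of 9 T and NK cell markers tested, 4 lay below (background 16.3%) and 0 above (background 15.4%). The sums of that list were 503.6 and 607.0 on the knockout-labelled arrays and 754.7 and 1002 on the wild-type arrays. Among genes of the T cell receptor complex, Cd3d and Cd3g were at or under 34.3 and Cd3e at or under 38.6 on all 4 arrays. Cd247, which NK cells use too, measured 88.4 and 97.9 on the knockout-labelled arrays, and 209.3 and 235.7 on the wild-type arrays (log2 -1.26, limma unadjusted p = 0.00709, adjusted p = 0.885). Gzma, Gzmb and Il2rb also lay below, while Ncr1, Klrd1, Prf1, Cd3e and Cd5 overlapped between the groups. The part of B, T and NK cells in the Ltb difference was not tested.

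Tnfsf10 on 1459913_at measured 96.9 and 302.3 on the knockout-labelled arrays, and 394.5 and 487.3 on the wild-type arrays. With 1420412_at the values were 31.5 and 237.6 on the knockout-labelled arrays, and 170.6 and 362.4 on the wild-type arrays. With 1439680_at they were 37.7 and 153.3 on the knockout-labelled arrays, and 223.2 and 247.1 on the wild-type arrays. Knockout 1 was the lowest array on all 3 probe sets, and the groups were separate on 2 of them. The log2 differences were -1.36 (SE 0.55), -1.52 (SE 0.97) and -1.63 (SE 0.68), with limma adjusted p between 0.998 and 0.999. Without knockout 1 they shrank to -0.54, -0.065 and -0.62. The LPS array of the LPS pair (200.3, 79.5 and 105.0) lay between the knockout-labelled values on all 3 probe sets.

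Tnfsf13b measured 48.0 and 65.5 on the knockout-labelled arrays, and 61.5 and 90.0 on the wild-type arrays (1460255_at, log2 difference -0.41, SE 0.39). Its second probe set gave 0.17 (SE 0.45), so the signs differ and the groups overlap on both. Fasl measured 40.1 and 7.07 on the knockout-labelled arrays, and 48.3 and 12.9 on the wild-type arrays (1418803_a_at). Array 2 of each genotype was under the floor, and 1449235_at, above the floor on 1 of the 4 arrays, was not tested.

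Tnfrsf1b on 1448951_at measured 4096 and 3625 on the knockout-labelled arrays, and 2626 and 2426 on the wild-type arrays. This is 1.53-fold (log2 0.61, SE 0.17, n = 2 per genotype; limma, unadjusted p = 0.0115, adjusted p = 0.899). On 1418099_at the values were 8820 and 8897 on the knockout-labelled arrays, and 7404 and 5950 on the wild-type arrays (log2 0.42, SE 0.18, adjusted p = 0.999). The groups were separate on both probe sets, in the same direction. Of the 8 macrophage markers, 5 also had both knockout-labelled arrays above both wild-type arrays (background 15.4%) and 1 below (background 16.3%). The log2 differences were 0.64 for Itgam, 0.58 for Cd14, 0.40 for Adgre1, 0.21 for Fcgr1 and 0.060 for Cd68. Those of Csf1r (0.045), Lyz2 (-0.055) and Mertk (-0.12) were small or negative. The sums of the 8 markers were 91160 and 91270 on the knockout-labelled arrays, and 77078 and 84793 on the wild-type arrays. Cd14, a large part of them, was itself 2.96-fold higher on the LPS array than in medium. The part of macrophage RNA in the Tnfrsf1b difference was not tested. In the LPS pair the LPS array measured 2520 on the first probe set, level with the Trib1-line wild types, but 8301 on the second, nearer to the knockout-labelled arrays.

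Tnfrsf1a measured 3692 and 4324 on the knockout-labelled arrays, and 3639 and 4199 on the wild-type arrays (log2 0.032, SE 0.18). Fas measured 1068 and 765.0 on the knockout-labelled arrays, and 744.7 and 985.4 on the wild-type arrays (log2 0.077, SE 0.25). The groups overlap for both death receptors, with a limma adjusted p = 0.999 each.

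Tnfrsf12a on 1418571_at measured 177.7 and 218.0 on the knockout-labelled arrays, and 26.7 and 15.0 on the wild-type arrays, both under the floor. The knockout-labelled level was at least 6.59-fold higher, a bound that depends on the floor: on the log2 scale it is 2.72 here, 1.48 with a floor at the 60th percentile and 3.30 at the 25th. Limma did not call it (adjusted p = 0.766), and its p is no measure of support, since the probe set entered the test through the knockout-labelled arrays alone and both wild-type values are the floor. On 1418572_x_at the values were 225.1 and 54.5 on the knockout-labelled arrays, and 209.0 and 130.9 on the wild-type arrays (log2 -0.58, SE 0.71). The probe sets of this gene thus disagree, and the LPS and medium arrays of the LPS pair, wild type too, stood at 100.5 and 153.2 on the first of them.

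Mesothelial and stromal markers were read beside that probe set. Their summed level was 1981 and 4558 on the knockout-labelled arrays, and 1347 and 1643 on the wild-type arrays. Of 9 tested, 5 had both knockout-labelled arrays above both wild-type arrays (background 15.4%) and 0 below (background 16.3%). The fibroblast collagen gene Col1a1 measured 239.2 and 861.8 on the knockout-labelled arrays, and 146.8 and 140.3 on the wild-type arrays. The mesothelial gene Upk3b was above the floor only on knockout 2, and there by little (33.8). From the same list, Msln measured 37.8 and 58.0 on the knockout-labelled arrays, and 19.3 and 31.3 on the wild-type arrays. Wt1 overlapped, at 39.9 and 26.0 on the knockout-labelled arrays, and 45.3 and 27.9 on the wild-type arrays. The largest values in the knockout 2 sum were those of Col1a2 (1190), Dcn (1049), Col3a1 (942.5) and Col1a1 (861.8). Over all arrays the sums and Tnfrsf12a 1418571_at did not run in the same order. The LPS array of the LPS pair, with the lowest sum of the mesothelial and stromal markers (946.4), measured 100.5 on Tnfrsf12a 1418571_at. The medium array, with the lowest but 1 sum (1089), measured 153.2. Neutrophil markers summed to 3277 and 1041 on the knockout-labelled arrays, and 556.8 and 486.1 on the wild-type arrays, led by the collagenase gene Mmp8 (2587 on knockout 1). Of 6 tested, 2 lay above (background 15.4%) and 1 below (background 16.3%). Without Mmp8 the sums were 689.4 and 327.2 on the knockout-labelled arrays, and 344.7 and 364.3 on the wild-type arrays. Camp, the other that lay above, measured 219.9 and 66.9 on the knockout-labelled arrays, and 11.0 and 7.03 on the wild-type arrays. Both wild-type values of Camp were under the floor, so it entered the test through the knockout-labelled arrays alone. Ltf lay below, at 40.2 and 12.7 on the knockout-labelled arrays, and 87.0 and 87.2 on the wild-type arrays. The part of other cells in the Tnfrsf12a difference was not tested.

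**Figure D3:**
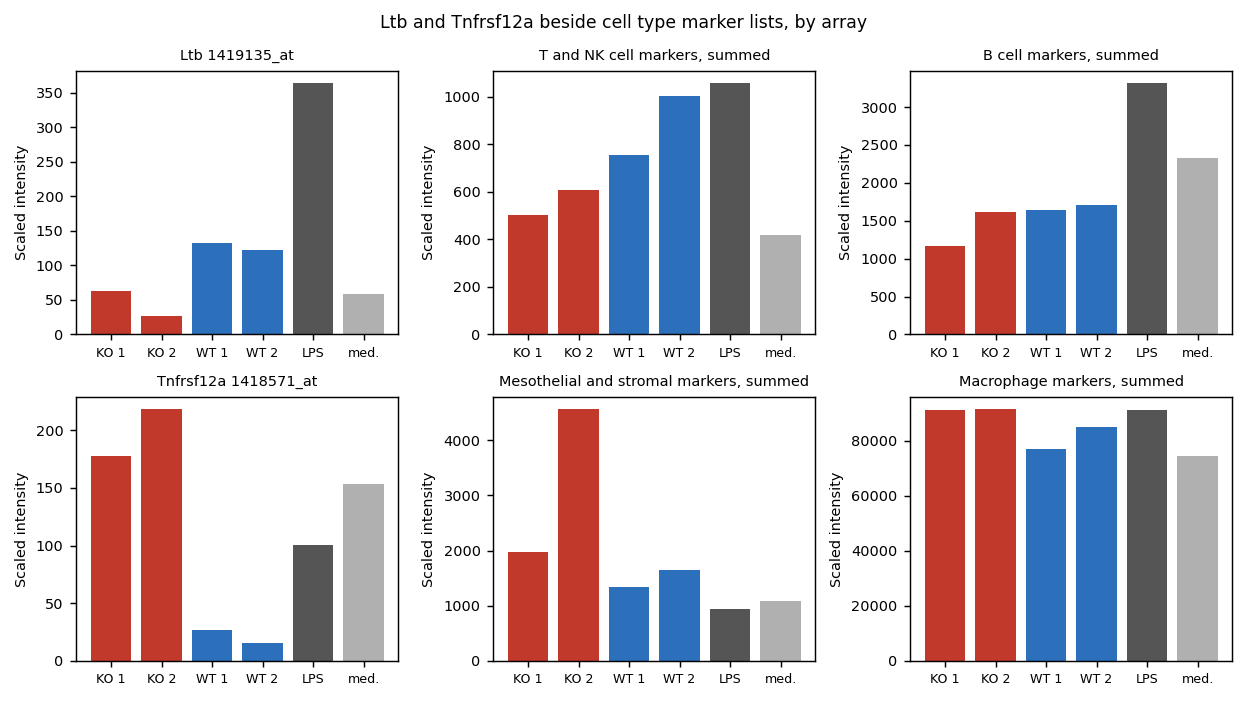
Scaled intensity on each array of Ltb and Tnfrsf12a (1418571_at), left column, beside the summed scaled intensities of marker lists for T and NK cells, B cells, mesothelial and stromal cells, and macrophages (1 leading probe set per gene). T and NK cell and B cell sums are lower on both knockout-labelled arrays (503.6 and 607.0, 1167 and 1617) than on either wild-type array of that line, and the mesothelial and stromal sum is highest on knockout 2 (4558).

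**Figure D4:**
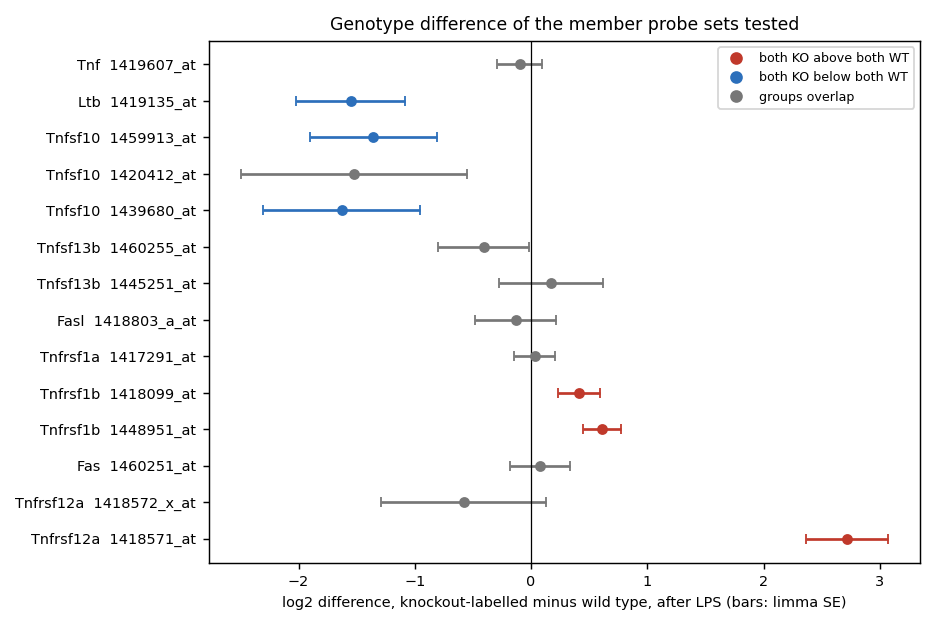
Log2 difference of the 14 member probe sets tested, knockout-labelled minus wild type after LPS (n = 2 each), with limma standard errors as bars. Red points (both Tnfrsf1b probe sets and Tnfrsf12a 1418571_at) have both knockout-labelled arrays above both wild-type arrays, blue points (Ltb and 2 Tnfsf10 probe sets) have them below, and the widest bar belongs to Tnfsf10 1420412_at (SE 0.97). The Tnfrsf12a 1418571_at bar understates its error, because both wild-type values are the floor.

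In all, 14 of the 16 member probe sets, with at least 1 for each gene, exceeded the floor on 2 or more Trib1-line arrays and were tested. Limma called 0 of them, where 0% of 29078 probe sets were called, and 3 had an unadjusted p under 0.05, of which 2 were higher (background 2.28%) and 1 lower (background 2.71%). For 1 of the 14, Tnfrsf12a 1418571_at, which is among the higher ones, both wild-type arrays were under the floor, so it had to differ to be tested. Both knockout-labelled arrays lay above both wild-type arrays for 3 (background 15.4%) and below for 3 (background 16.3%), shares near the background. At least a 2-fold gap was seen for 1 that was higher, Tnfrsf12a 1418571_at (background 0.389%), and for 0 that were lower (background 0.33%). The median log2 difference was -0.12 over the 14 and -0.0054 over all probe sets tested. With 2 arrays per genotype the smallest two-sided p of an exact permutation test is 0.33, which is why the spread was pooled across probe sets.

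The wider system gave no call between genotypes either. Limma called 0 of 6 other ligands, 0 of 14 other receptors and 0 of 32 signalling genes tested. At an unadjusted p under 0.05 there were 0, 0 and 3, of which 2 were higher (background 2.28%) and 1 lower (background 2.71%). The smallest p among ligands belonged to Tnfsf9 (log2 0.45, adjusted p = 0.999) and Cd70 (-0.34). Among receptors they belonged to Tnfrsf13c (-1.11), the BAFF receptor of B cells, and Tnfrsf18 (-0.95), the GITR receptor of T cells, each with an adjusted p = 0.999. Among signalling genes they belonged to Birc2, a ubiquitin ligase of the TNFR1 complex, and Map3k5, the stress kinase ASK1. Birc2 measured 437.9 and 438.0 on the knockout-labelled arrays, and 746.0 and 698.8 on the wild-type arrays (log2 -0.72, adjusted p = 0.899). Map3k5 measured 343.2 and 397.6 on the knockout-labelled arrays, and 144.7 and 222.2 on the wild-type arrays (log2 1.04, adjusted p = 0.936). Tnip1, with the third unadjusted p under 0.05, had a log2 difference of 0.47. The median differences of the 3 lists were -0.092, 0.059 and 0.034.

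The gene whose log2 values followed the leading probe set of each member most closely over the 6 arrays was sought among 11697 probe sets that varied at least 2-fold. The nearest to Tnf was Malt1, a paracaspase gene of NF-kB signalling (Pearson r = 0.994; 4811 and 5227 on the knockout-labelled arrays, 4991 and 5613 on the wild-type arrays, 6243 on the LPS array and 1681 in medium). For Ltb it was Suz12 (r = 0.973), for Tnfsf10 D13Ertd608e (0.992), for Tnfsf13b Serpinb9 (0.992) and for Fasl Dnajc16 (0.994). The Fasl probe set exceeded the floor on only 3 of the 6 arrays and its remaining values are the floor, so its r says little. For Tnfrsf1a it was Cxcl14 (0.992), for Tnfrsf1b 1418099_at Slc25a25 (0.997), for Fas Tfap2a (0.991) and for Tnfrsf12a 1418572_x_at Mysm1 (0.995). The other probe sets of these genes were not used for this. Over 6 arrays, 1 of them medium, such values come easily: between 33 (Ltb) and 272 (Tnf) probe sets exceeded r = 0.9, and the correlations describe these arrays alone.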

How the data were processed

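RNA of 6 macrophage samples was measured on 6 one-colour Affymetrix arrays. The authors deposited 1 linear intensity for each probe set, computed with MAS5 per the submitters' processing notes; its version and scaling target are not given in the sources used here. Groups were taken from the titles. The trimmed mean (2% removed at each end) was 500.0 for the LPS and medium arrays of the LPS pair and between 95.5 and 106.6 on the others, so each array was rescaled to a common 233.9. Of 45101 probe sets 64 controls were left out. Values under the floor (29.9) were set to it before log2. Knockout-labelled arrays were compared with wild-type Trib1-line arrays with limma 3.58.1 in R 4.3.3 (lmFit, eBayes with a trend, two-sided, Benjamini-Hochberg over all 29078 probe sets exceeding the floor on 2 or more of 4 arrays). The 3 wild-type LPS arrays were compared with medium the same way. No test was made within the LPS pair. A gene's leading probe set has the highest mean over the 6 arrays. The number of arrays, and signal over the floor, limit the precision.

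Members and lists were chosen with earlier results of these data known, and the motifs and the genes whose windows are printed after the values were seen. Named were all members, from each list up to 4 genes past the 4-fold rule and, as none passed limma, the 2 with the smallest p, and the gene most correlated with each member. Marker genes named singly, and Lta, were picked after their values were seen. Genes listed only on probe sets with several symbols (Tnfsf12 and Tnfsf13) were not used, and the 4 lists of other cells held 13 T and NK, 8 B, 7 neutrophil and 12 mesothelial and stromal genes. The limma code was checked on simulated arrays. Alternatives were quantile normalization, no rescaling, a floor at the 25th or the 60th percentile, a pseudocount of 16 without a floor, a filter of 1 array, a replicate block, each array left out, the LPS array as an added wild type, no trend, Trib1-line arrays in place of the LPS array, and fold rules of 2 and 8. Figures used Python 3.11.15, numpy 2.4.6, pandas 2.3.3 and matplotlib 3.10.9.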

Additional observations from a re-analysis of the deposited data

Results flagged for a closer look

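Tnfrsf12a (1418571_at) stood out because its Trib1-line groups fell on opposite sides of the medium array. Both knockout-labelled arrays (177.7 and 218.0) lay above the medium value of 153.2, and both wild-type arrays (26.7 and 15.0) lay below it, a log2 difference of 2.72 between genotypes at the floor. No knockout array was given medium, so a difference in the LPS response between genotypes was not tested. The second probe set, 1418572_x_at, did not share the pattern, with both groups below the medium value of 309.9.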

How the results depend on the processing

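The count of 0 limma calls between genotypes held for the deposited values, quantile normalization, both other floors, log2 of the value plus 16, the filter of 1 array, the added wild type and the prior without a trend. It moved to 116 (85 higher and 31 lower) with a replicate block, and to between 5 and 68 when 1 array was left out; the cause was not tested. The labels do not say what the shared numbers mark. Deviations of same-numbered arrays correlated with r = 0.35 across probe sets, which is a hint from the data and not from the design. Among members the block made 1 call, Tnfrsf12a 1418571_at (log2 2.72, adjusted p = 0.0372; range over its 11 alternatives 0.0372 to 0.961), and leaving out 1 array made 0. The call rests on a probe set that entered the test through the knockout-labelled arrays alone, with both wild-type values at the floor, and is not support for a difference. That probe set was above the floor on too few arrays to be tested without knockout 1 or without knockout 2, and its log2 difference ran from 1.48 (floor at the 60th percentile) to 3.30 (floor at the 25th).

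Of 175 genotype values of members under the alternatives, 11 turned sign. Of these, 9 came from leaving out 1 array, where the log2 difference ran from -0.25 to 0.051 for Tnf, from -0.32 to 0.67 for Tnfsf13b 1445251_at, from -0.48 to 0.079 for Fasl 1418803_a_at, from -0.082 to 0.15 for Tnfrsf1a, from -0.16 to 0.32 for Fas and from -1.60 to 0.44 for Tnfrsf12a 1418572_x_at. The other 2 came with the LPS array as an added wild type, for Tnfrsf1a (-0.016) and Fas (-0.18). Ltb, Tnfsf10 and Tnfrsf1b kept their sign throughout. For LPS, 6 member probe sets passed a fold rule of 2 and 0 a rule of 8. With wild type 1 of the Trib1 line in place of the LPS array 1 was induced and 1 repressed by the 4-fold rule, and with wild type 2 there were 2 and 1. The repressed probe set was Tnfrsf12a 1418571_at (log2 -2.36 at the floor) in both, and Ltb did not pass. The limma call of Tnfrsf1b against medium was lost with the deposited values (0 calls), where the LPS arrays themselves lie on scales about 5 times apart.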
